A study of Xenopus tropicalis with 12 samples.

Results

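Thyroid hormone (T3) remodels the tadpole intestine at metamorphosis. TR binding in wild-type intestine with T3 was set against binding without T3, region by region. The wild-type tadpoles were Xenopus tropicalis at stage 54, before natural metamorphosis, and had received no T3 or 10 nM T3 for 18 h. Each treatment gave 1 ChIP DNA sample, sequenced as 3 technical replicates, so that 6 of the 12 libraries of the series entered the comparison. The other 6 libraries came from TRα-/- (TRalpha knockout) tadpoles at the same stage, with the same treatments. They were used as libraries that had no part in choosing the regions. The antibody pulled down both TRα and TRβ. The spread between libraries is that of making and sequencing libraries, and a difference between treatments cannot be told apart from a difference between the 2 ChIP samples.

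Overlaps of 1 bp or more joined the peaks of the 6 wild-type lists into 165219 regions on 10 chromosomes of the Xenbase v9.1 assembly. Regions that every T3 library and no control library had a peak in were called T3-only and numbered 414, or 0.251% of all joined regions. Those that every control library and no T3 library had a peak in, 126 in number (0.0763%), were called control-only. Another 7329 regions (4.44%) had a peak in all 6 libraries and were called shared. These 7869 regions are the subject of what follows.

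The receptors TRα and TRβ are transcription factors that bind DNA as heterodimers with the 9-cis retinoic acid receptor RXR, at thyroid hormone response elements. At genes induced by T3, unliganded TR recruits corepressors, and T3 replaces these with coactivators. In the frog intestine, T3 leads to the death of larval epithelial cells and to the formation of adult stem cells, and early direct response genes include the genes of TRβ and of TH/bZip. Binding that needs T3 and binding that is there before T3 are thus separate questions. The classes of region above record whether a peak was called. A missing call does not show that binding was absent.

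Without read totals in the lists, sequencing depth is unknown. Wild-type control libraries had 34644, 44694 and 63333 peaks, and T3 libraries had 34933, 40863 and 44567. The background level, worked back from pileup and fold enrichment as a rough index of depth, was 0.0898, 0.279 and 0.426 fragments per base in control replicates 1, 2 and 3, and 0.251, 0.523 and 0.664 in T3 replicates. Each T3 library was therefore above the control library of the same number on this index. The part that depth had in the classes was not tested.

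Most joined regions were seen in a single library, 50722 in a T3 library alone and 80400 in a control library alone. The T3-only class stood beside 2575 regions with a peak in 2 T3 libraries and no control library, and 1422 regions found in 3 T3 libraries and 1 control library. The control-only class stood beside 2126 and 361 regions of the mirrored kinds. When each of the 6 lists was cut to its 34644 strongest peaks, there were 485 T3-only and 100 control-only regions. A stricter −log10 q, 5 or more, left 297 T3-only and 15 control-only regions. Peaks that passed this cut made up 14.6%, 25.8% and 25.6% of control lists 1, 2 and 3. They made up 28.0%, 39.7% and 37.6% of T3 lists 1, 2 and 3. The cut thus removed a larger share of every control list than of any T3 list. Its 2 counts are therefore not on equal terms and cannot show whether the T3-only excess holds among stronger peaks. With the 34644 strongest peaks of each list, T3-only regions were the more numerous, as in the main setting. Leaving out 1 library gave between 562 T3-only regions (without control replicate 1) and 1695 (without T3 replicate 1), and between 181 control-only regions (without T3 replicate 1) and 1207 (without control replicate 1). Without a library, regions of its own side need a peak in 2 libraries and those of the other side in 3. The 2 counts are then not on equal terms. Without control replicate 1, the library with the lowest background level, there were more control-only than T3-only regions. The cause of this was not tested. Without control replicate 2 the numbers were 753 T3-only and 788 control-only regions, and without control replicate 3 they were 1346 and 506. Without T3 replicate 1, 2 or 3 there were 1695, 1096 or 1032 T3-only and 181, 266 or 286 control-only regions.

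**Figure D1:**
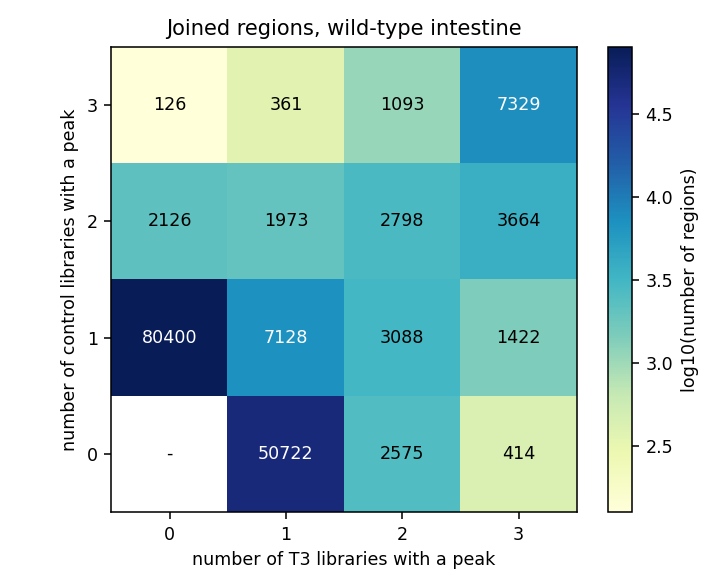
Number of joined regions of wild-type intestine by the number of T3 libraries (horizontal axis) and control libraries (vertical axis) with a peak, each from 0 to 3, with the colour on a log10 scale. The corners hold the 414 T3-only, 126 control-only and 7329 shared regions, and regions of a single library make up the largest cells.

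T3-only regions were weaker and narrower than shared regions. Their median pileup, the number of fragments at the summit, was 5, 8 and 9 in T3 replicates 1, 2 and 3, while that of shared regions was 12, 22 and 23 in the same libraries. Placed in each library's own list, where 100 is the highest pileup, T3-only regions had a median percentile of 52.1, 55.0 and 60.2, near the middle of the list. Control-only regions took a like place in the control libraries, with 54.3, 54.3 and 60.1. Shared regions had medians between 86.3 and 92.9 in all 6 libraries. The median width was 591 bp in both the T3-only and the control-only class, 953 bp in the shared class and 224 bp over all joined regions. A region spans all of its joined peaks, so its width can grow with the number of libraries that have a peak. In T3 replicates 1, 2 and 3, single peaks had a median width of 306.5, 391 and 383 bp in T3-only regions. In shared regions of the same libraries it was 610, 762 and 777 bp. These values come from the peaks that defined the classes and are a description.

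**Figure D2:**
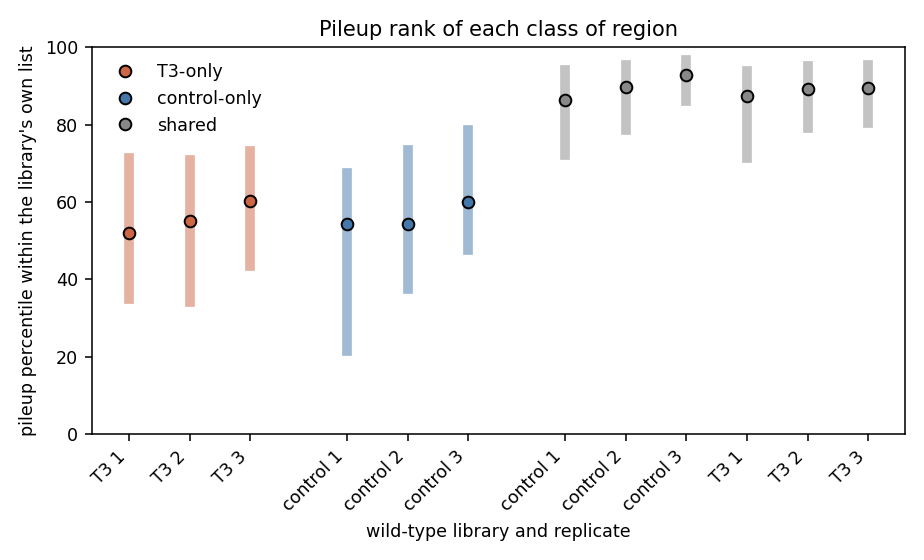
Pileup percentile of regions within each wild-type library's own peak list (vertical axis, 0 to 100), with points for medians and thick bars for the middle 50% of the regions. T3-only and control-only regions lie near the middle of the lists, with medians from 52.1 to 60.2, and shared regions lie at 86.3 or above.

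The summits of T3-only peaks lay apart by a median of 190.5 bp between the 3 T3 libraries, against 136 bp for shared regions in the same libraries. For control-only regions the median was 226.5 bp, and for shared regions in the control libraries 188 bp. Few T3-only or control-only regions lay directly beside a peak of the other treatment. For T3-only regions the nearest control peak was at a median distance of 2527 bp, and in 49 regions (11.8%) it was within 500 bp. For control-only regions the nearest T3 peak was at a median distance of 3593 bp, and in 13 regions (10.3%) it was within 500 bp. A shared region lay within 10 kb of 106 T3-only regions (25.6%) and of 24 of the 126 control-only regions.

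A larger share of T3-only than of shared regions lay near gene starts. Within 1 kb of the start of a named gene were 32 T3-only regions, or 7.73% (Wilson 95% interval 5.53 to 10.7, counting error only), against 6 control-only regions (4.76%, 2.20 to 10.0), 4.73% of shared regions (4.27 to 5.25) and 3.80% of all joined regions. These intervals treat regions as independent, though each treatment was 1 ChIP sample, so they do not test the classes against each other. Without the weaker peaks (−log10 q of 5 or more) the T3-only share was 3.37%. It was 5.45% with an overlap of 50% of both peaks and 4.59% with a window of 500 bp. The share of shared regions in these settings was not computed, so the 2 classes cannot be compared there. Another 37.4% of T3-only regions lay in the rest of a gene body, 13.3% within 5 kb of a gene, and 41.5% more than 5 kb away from any named gene. The share farther than 5 kb was 53.2% for control-only (44.5 to 61.7) and 46.4% for shared regions. With the 5 kb flanks left out, 54.8% of T3-only regions lay outside gene bodies and farther than 1 kb from a gene start. Inside the extent of a gene lay 42.0% of them.

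**Figure D3:**
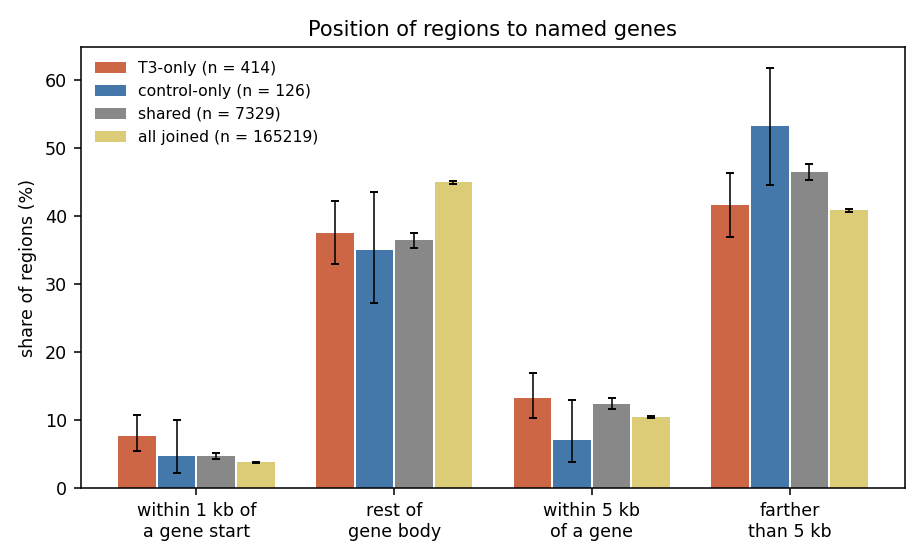
Share of T3-only, control-only, shared and all joined regions (vertical axis, percent) by position to genes named in the lists (horizontal axis), with Wilson 95% intervals as error bars. T3-only regions have the largest share within 1 kb of a gene start, 7.73%, and control-only regions the largest share farther than 5 kb from a gene, 53.2%.

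Over all peaks of the libraries, the shares at gene starts and far from genes were higher with T3 and the share in gene bodies was lower. Of the peaks of the control libraries, 3.54%, 3.70% and 3.72% lay within 1 kb of a gene start, and of the T3 libraries 4.09%, 4.24% and 4.17%. All 3 T3 libraries were above all 3 control libraries, with means of 3.65% ± 0.0968 (SD, n = 3) and 4.17% ± 0.0713 and a difference of 0.515 percentage points (exact permutation test, two-sided, p = 0.1, the smallest p that 3 libraries against 3 allow, and 0.25 after Benjamini-Hochberg adjustment over 5 measures). More than 5 kb from a gene lay 42.5% ± 0.247 of peaks without and 43.5% ± 0.293 with T3, a difference of 1.07 points, and in the rest of gene bodies 43.0% ± 0.387 and 41.1% ± 0.269, a difference of −1.92 points, both without overlap (exact permutation p = 0.1, n = 3 each). The gene body share was added after seeing the data and is not among the 5 measures adjusted. In TRα-/- intestine these differences were 1.72 and −2.50 points (exact permutation p = 0.1). There the share at gene starts also was higher in each T3 library, 3.76% ± 0.076 (n = 3) against 3.53% ± 0.0388, a difference of 0.230 points (exact permutation p = 0.1). The difference between the genotypes was not tested. At a −log10 q of 5 or more the wild-type difference was 0.149 points (exact permutation p = 0.3). The median peak width was 237 ± 31.6 bp without and 295 ± 41.0 bp with T3 (exact permutation p = 0.2), and the median pileup was 4.33 ± 1.15 and 6.67 ± 1.53 fragments (exact permutation p = 0.3). Shared regions took in 17.9% ± 5.70 of the peaks of control libraries and 19.8% ± 3.06 of those of T3 libraries (exact permutation p = 0.7). In these 3 measures the ranges of the treatments met or overlapped.

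The strongest T3-only region lay inside LOC100497515, on chromosome 9 from 45618436 to 45618884. Its pileup was 40, 89 and 98 fragments in T3 replicates 1, 2 and 3, which placed it at ranks 600, 412 and 405 of the lists. It was 255 bp away from a shared region, and a single TRα-/- control library and a single TRα-/- T3 library had a peak there. The T3-only region next in rank, 938 bp upstream of a glutamine tRNA gene (trnaq-cug) on chromosome 4, had a pileup of 23, 38 and 60 and a control peak 224 bp away. Both regions were therefore beside peaks of the control libraries.

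Away from control peaks, the region inside spidr, which encodes a scaffold protein of DNA double-strand break repair, had a pileup of 19, 36 and 49 (chromosome 6, 98171089 to 98171444). The nearest control peak was 17025 bp away, and all 3 TRα-/- T3 libraries but no TRα-/- control library had a peak in it. The spidr region was thus found with T3 alone in both genotypes, and 3 further T3-only regions of the 414 showed this pattern. At 3 T3-only regions the reverse held in TRα-/- intestine, with a peak in every control and no T3 library. Over all 165219 joined regions these 2 TRα-/- patterns held at 94 and 319. The region in pik3r1, the gene of the regulatory subunit p85α of PI3-kinase, had a pileup of 17, 23 and 31 and no control peak within 9581 bp, and no TRα-/- library had a peak in it. A region in LOC100490156, named foxo6 in the reference gene table and thus a forkhead factor, had a pileup of 22, 26 and 39. A TRα-/- T3 library also had a peak in it.

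TRβ itself had a T3-only region. The gene (thrb), a direct target of TR in the frog, held this region outside its listed exons on chromosome 6 from 77251220 to 77251578, 33661 bp downstream of the gene's start. Its pileup was 14, 15 and 32 fragments in T3 replicates 1, 2 and 3. No peak was found there in any control or TRα-/- library, and the nearest control peak was 9408 bp away. A region at the start of thrb had a pileup of 11, 12 and 16 in the control libraries and 14 and 40 in T3 replicates 1 and 3, with no peak in T3 replicate 2. A shared region inside the gene, from 77303571 to 77304427, had a pileup of 15, 9 and 18 without T3 and 10, 26 and 20 with T3. TRβ therefore carried a region that was found with T3 alone and others that were found before T3. In all, 22 joined regions lay inside thrb or within 5 kb, and 17 of them had a peak in a single wild-type library. The shared region 4399 bp upstream of thibz, the gene of the leucine zipper factor TH/bZip, had a pileup of 22, 33 and 52 without T3 and 38, 65 and 90 with T3, and ranked between 465 and 935 in all 6 libraries. All 3 TRα-/- T3 libraries but no TRα-/- control library had a peak in it. This pattern held at 17 of the 7329 shared regions, and the reverse at 43.

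The remaining regions of the 12 best by rank lay in LOC100493262 (pileup 18, 33 and 35), near LOC108647862 (17, 27 and 37), at LOC101734526 (7, 27 and 31), at nrep (listed as LOC100487101; 13, 26 and 36), in ppm1b (14, 12 and 27) and in gpsm1 (18, 19 and 25). ppm1b encodes a protein phosphatase of the PP2C family, and gpsm1 a modulator of G protein signaling. Of these, the regions in LOC100493262, near LOC108647862 and in gpsm1 were between 201 and 626 bp from a shared region. Their nearest control peaks were 226, 148 and 580 bp away. For the regions at LOC101734526, at nrep and in ppm1b the nearest control peaks were 1303, 14510 and 1581 bp away.

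At gene starts, the region at nrep, a gene of neuronal regeneration, overlapped the start itself, and 2 TRα-/- T3 libraries and no TRα-/- control library had a peak in it. Aurora kinase B (aurkb), a kinase of mitosis, had a T3-only region inside the gene 769 bp from its start, with a pileup of 10, 14 and 7, and a control peak 159 bp away. The gene of the MAD2L1-binding protein (mad2l1bp), which acts in silencing the spindle checkpoint, had a T3-only region 408 bp upstream with a pileup of 6, 13 and 21. Upstream of fam180a the pileup was 10, 12 and 13, in dmtn, the gene of the actin-bundling protein dematin, 6, 20 and 6, and at a glutamate tRNA gene (trnae-uuc) 9, 19 and 19. The nearest control peaks of these regions were 2596, 5659 and 296 bp away, in the same order. The other T3-only regions at gene starts were those of myo5b, tmem198, me3, alx4, cc2d1b, lpgat1, eml4, wdfy1, adi1, akap9, lcp2, tigd5, iffo1, uck1, snx6, fut8, cyp27a1, sumo2, c19orf66, a further trnae-uuc gene and 4 LOC genes. The genes cyp27a1, of a sterol 27-hydroxylase, and sumo2, of a small ubiquitin-like modifier, had the region on the start itself.

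Of the 19768 genes named in the lists, 263 (1.33%) had a T3-only region inside their extent or within 5 kb, and 63 (0.319%) had a control-only region. Of the 263 genes, 115 (43.7%) also had a shared region, and 148 did not. Of the 63 genes with a control-only region, 25 (39.7%) also had a shared region, and of all named genes 13.8%. These shares were not adjusted for the extent of the genes, and a longer gene can hold more regions of any class. The genes with 2 T3-only regions were LOC108648805, ebf4, ephx2, prkg1 and ptn. The gene of cGMP-dependent protein kinase 1, prkg1, also had 2 control-only regions, with pileups of 7, 6 and 5 and of 2, 8 and 6 in the control libraries, while its T3-only regions had 5, 8 and 10 and 5, 5 and 8 in the T3 libraries. Regions of both classes were also found at dgki, fam19a4 and nbas.

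Among the genes of the T3 response and T3 signaling reported here, thrb and 2 gene IDs listed as mmp9, a gelatinase, had a T3-only region, and none had a control-only region. The 2 mmp9 IDs share the same region, 3722 bp upstream of the nearer of them. It had a pileup of 4, 6 and 5, near the lowest pileup of called peaks, and a control peak 592 bp away. For all named genes the share with a T3-only region was 1.33%. Within this group thrb was therefore the gene with the stronger T3-only region.

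The Wnt, Notch and BMP list had 2 of 67 genes with a T3-only region, rspo2, of a secreted enhancer of Wnt signaling (pileup 6, 7 and 10), and smad7, of an inhibitor of TGF-β and BMP signaling (7, 7 and 8). The extracellular matrix and protease list had 1 of 38, the collagenase gene mmp1, with a region 3293 bp downstream (4, 7 and 13). Of the 62 cell cycle genes, aurkb had a T3-only region and ccnd2, the gene of cyclin D2, a control-only region (2, 3 and 6 in the control libraries). None of 31 cell death genes, 16 hedgehog genes or 42 gut epithelium genes had a region of either class, where 1.33% of all genes had a T3-only region. Shared regions were found at 6 T3 response (17.6% of the list), 6 cell cycle (9.68%), 3 cell death (9.68%) and 2 hedgehog genes (12.5%). They were also found at 11 Wnt, Notch and BMP (16.4%), 3 gut epithelium (7.14%) and 5 extracellular matrix genes (13.2%). Of all named genes, 13.8% had a shared region.

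Inside the extent of klf9, dio3, shh or foxo1 or within 5 kb, no joined region was found in every library of a treatment. Regions farther away were not counted for these genes. The gene of the Krüppel-like factor KLF9, induced by T3 in many tissues, had 4 joined regions, none with more than 2 control or 1 T3 library. That of deiodinase 3, which inactivates T3, had a single region, in 1 T3 library. There were 7 regions at shh and 6 at foxo1, the latter each in a single library. CDK1, the kinase of mitotic entry (cdk1), had a shared region upstream with a pileup of 2, 15 and 22 without T3 and 12, 10 and 27 with T3, and a region 1891 bp downstream with 8 and 12 in control replicates 2 and 3 and 6, 12 and 21 with T3. The treatments overlapped in pileup at both cdk1 regions.

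The best ranked control-only region, 708 bp wide, lay 10244 bp downstream of dnaja4.2, which encodes a DnaJ co-chaperone, with a pileup of 38, 55 and 86 in control replicates 1, 2 and 3. Next were a region of 179 bp downstream of trpc4ap (17, 38 and 65), a region of 188 bp in mgmt, the gene of a DNA alkyl transfer repair enzyme (14, 33 and 53), and a region of 193 bp near trnaq-cug (12, 29 and 51). The region near LOC105947471 (8, 17 and 20) and that in mapk14, the gene of the stress kinase p38α (6, 16 and 16), completed the 6 best. Of these, the regions near dnaja4.2, trpc4ap, mgmt and LOC105947471 had no peak in any TRα-/- library.

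The TRα-/- libraries gave the same measure in libraries that the choice of regions did not use. A peak was found in 23.9%, 26.8% and 31.6% of T3-only regions in TRα-/- control libraries, and in 14.3%, 23.2% and 26.3% in TRα-/- T3 libraries. T3-only regions of wild-type intestine were thus not found more often with T3 in TRα-/- intestine. The mean was 27.5% ± 3.90 (SD, n = 3) without and 21.3% ± 6.27 with T3, a difference of −6.20 points (exact permutation test, two-sided, p = 0.2, and 0.4 after Benjamini-Hochberg adjustment over 4 sets). Over all joined wild-type regions the difference was −1.92 points (exact permutation p = 0.2), and TRα-/- T3 libraries had fewer peaks, from 17414 to 30916, than TRα-/- control libraries, from 38961 to 44196. When each of the 12 lists was cut to its 17414 strongest peaks, the T3-only difference was 3.52 points (exact permutation p = 0.5). Control-only regions were found in 22.0% ± 7.37 and 18.0% ± 10.3 (difference −3.97, exact permutation p = 0.7).

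At 4 T3-only regions every TRα-/- T3 library and no TRα-/- control library had a peak, and at 3 the reverse held. These numbers were 17 and 43 for the 7329 shared regions and 94 and 319 for all 165219 joined regions. No TRα-/- library had a peak in 110 T3-only regions (26.6%) and 37 control-only regions (29.4%), against 75 shared regions (1.02%). Over all joined regions this share was 77.9%. Shared regions were found in 85.5% ± 5.78 of cases per library without T3 and 81.7% ± 7.27 with T3 (difference −3.81, exact permutation p = 0.5). T3-only and control-only regions therefore had a peak in at most 31.6% of cases in any TRα-/- library, and shared regions in most.

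**Figure D4:**
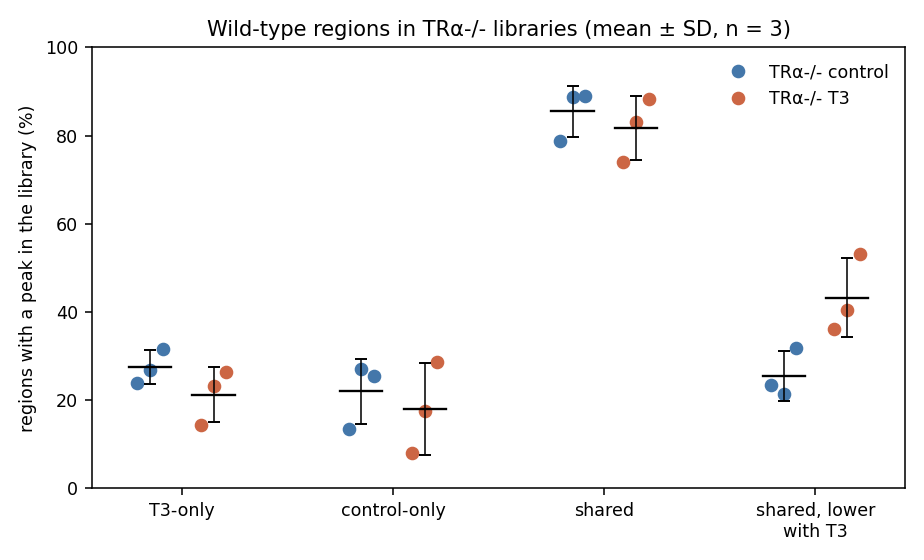
Share of wild-type regions that had a peak in each TRα-/- library (vertical axis, percent), for T3-only, control-only and shared regions and for the 47 shared regions with lower pileup with T3. Points are libraries, lines with bars are means ± SD (n = 3), and the 47 regions alone have every T3 library above every control library.

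Shared regions had a pileup in all 6 libraries, but pileup was not scaled to depth. Their median pileup was 6, 13 and 19 in control replicates 1, 2 and 3, and 12, 22 and 23 in T3 replicates. The highest shared region, 7061 bp downstream of LOC108648339, had a pileup of 926, 2181 and 3141 without T3 and 2122, 4130 and 4664 with T3. The 4 next by rank lay near LOC108647659, LOC108648339, tom1l1 and LOC101730992. In all 5, each T3 library was above the control library of the same number. Over all shared regions, 6.03%, 7.83% and 22.7% were below it in T3 replicates 1, 2 and 3. The raw values therefore cannot show whether binding at these 5 regions was stronger with T3. With the percentile of the pileup among the 7329 shared regions of a library, 0 regions were higher (0%) and 3 lower (0.0409%) with T3 by limma at an adjusted p under 0.05, and 196 were higher and 211 lower at an unadjusted p under 0.05. The most significant was a region inside oc90, the otoconin-90 gene, on chromosome 6 from 127287809 to 127288533. Its pileup was 28, 76 and 95 without T3 and 21, 37 and 38 with T3, and its percentile decreased by 20.6 ± 1.92 (SE, limma adjusted p = 0.0158). A region at the start of pitx1, a homeobox factor gene, had 26, 91 and 117 without T3 and 21, 39 and 48 with T3 and decreased by 17.4 percentiles ± 1.81 (limma adjusted p = 0.0193). The region 4007 bp downstream of wnt11r, a Wnt ligand gene, had 22, 48 and 95 without and 17, 38 and 39 with T3 and decreased by 20.7 percentiles ± 2.55 (limma adjusted p = 0.0496). None of the 3 calls was made when any of the control libraries was left out, or with the replicate block, where the lowest limma adjusted p was 0.0960.

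Percentiles compress the differences between the strongest regions. On the log2 pileup minus the library's median, limma called 47 shared regions lower (0.641%) and 1 higher (0.0136%) with T3, among them the 3 above. Normal scores of the ranks gave 44 lower (0.6%) and 7 higher (0.0955%), and 45 regions were called on both scales. The region called higher, 36673 bp downstream of pcgf3, a Polycomb gene, had a pileup of 2, 5 and 12 without T3 and 21, 27 and 30 with T3 (log2 difference 1.70 ± 0.37 SE, limma adjusted p = 0.0178). All 47 kept a lower mean with each library left out, and between 35 (without control replicate 2) and 46 (without control replicate 1) of them were called there. With the replicate block, 47 of the 47 were called. The number called higher was 8 without control replicate 1, 13 without control replicate 3 and 0 without any of the other 4 libraries, where the region near pcgf3 was thus not called. The log2 differences of the 47 ranged from −2.14 to −1.11 with a median of −1.44.

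The 47 regions were lower with T3 in raw pileup too, while most other shared regions were not. They were called from these same pileups, so the raw values describe them and are no separate test. In T3 replicates 1, 2 and 3, 46, 47 and 47 of them were under the control library of the same number, as against 6.03%, 7.83% and 22.7% of all shared regions. Near dusp10, the gene of a MAP kinase phosphatase, a region had a pileup of 623, 1778 and 2662 without T3 and 500, 1198 and 1067 with T3. The region in pcnxl4 had 363, 960 and 1319 and 269, 612 and 553, and that near pitrm1, the gene of a mitochondrial peptidase, 513, 936 and 1154 and 341, 634 and 550. In usp15, of a deubiquitinase, the values were 330, 639 and 760 without and 213, 442 and 335 with T3. At the start of the homeobox gene hoxb7 they were 243, 362 and 443 without and 187, 284 and 251 with T3. In all 47, each T3 library was under control replicates 2 and 3.

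**Figure D5:**
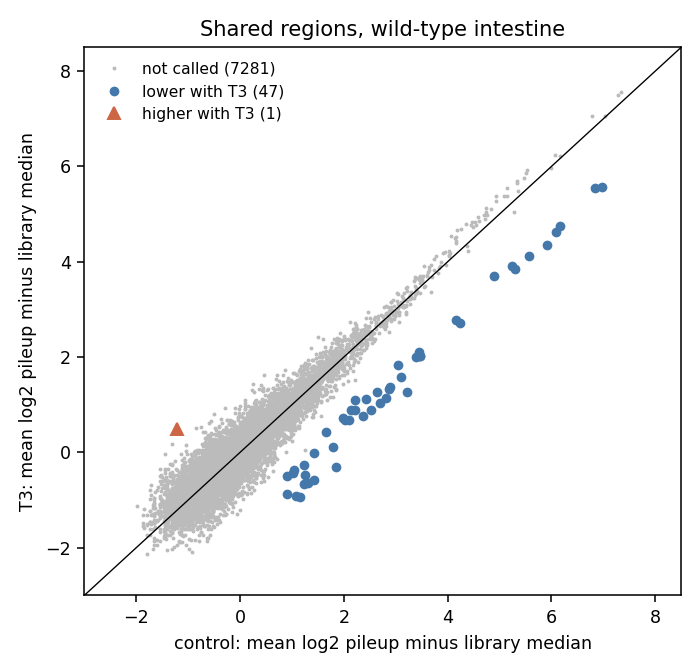
Mean log2 pileup minus the library's median over shared regions, for control (horizontal axis) and T3 libraries (vertical axis, n = 3 each), with the line of equality. The 47 regions lower with T3 were called on the plotted values and lie under the line. At the highest pileups, those called lower lie apart from the other shared regions. The region called higher lies above the line.

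Among the 57 shared regions with a mean log2 pileup in the control libraries of at least 4 above the median, 11 were lower with T3 and the other 46 were not. The log2 difference was −1.40 ± 0.105 (SD over 11 regions, from −1.55 to −1.19) in the former and 0.246 ± 0.156 (from −0.221 to 0.490) in the latter, so that no region lay between −1.19 and −0.221. The 11 regions had a median width of 267 bp and the 46 of 1371 bp. In wild-type libraries they were of like strength, with median pileups of 388.5 and 464. The TRα-/- libraries set them apart. The highest pileup in any TRα-/- library was between 13 and 70 for the 11 regions and between 155 and 2516 for the 46. With a library without a called peak counted as 0, the median over the 6 libraries was 10 against 231.75. All 6 TRα-/- libraries had a peak at 4 of the 11 regions and at each of the 46. The region near dusp10 had 7, 22 and 8 in TRα-/- control and 41, 35 and 48 in TRα-/- T3 libraries. This split of the regions was drawn after their values were seen and is a description. Peaks were called without an input library, and whether the pileup at these narrow regions is TR binding was not tested.

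Over all 47, the median width was 459 bp, and 15 (31.9%) had no peak in any TRα-/- library, against 0.824% of the other shared regions. Among them are regions in gpsm1, herc2, rfx1 and arhgap31. The region in gpsm1 (53, 169 and 222 without and 50, 86 and 95 with T3) lies 580 bp from the T3-only region of that gene described above. In TRα-/- libraries, 23.4%, 21.3% and 31.9% of the 47 had a peak without T3 and 36.2%, 40.4% and 53.2% with T3. Every TRα-/- T3 library was above every TRα-/- control library, with means of 43.3% ± 8.86 (n = 3) and 25.5% ± 5.63 (difference 17.7 points, exact permutation p = 0.1, the smallest possible). More TRα-/- T3 than control libraries had a peak in 21 of the regions and fewer in 4, and in shared regions overall in 1006 and 1601. The regions with less pileup with T3 in wild-type intestine were thus found more often with T3 in TRα-/- intestine. The part of the library, the ChIP sample and the genotype in these values cannot be told apart.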

How the data were processed

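TR ChIP-Seq peak lists of 12 libraries of Xenopus tropicalis intestine were used. The authors aligned the reads with Bowtie2 2.3.4.1 to Xenbase v9.1, removed redundant reads and called peaks with MACS2 2.1.1.20160309 for single libraries, without input, at a q-value under 0.05. For each peak the authors deposited position, width, pileup signal in fragments (not scaled to depth), fold enrichment as a ratio to background, −log10 p-value and −log10 q-value. The lists give several lines per peak, 1 for each near feature, and were reduced to 1 line per peak.

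Peaks were joined with an overlap of 1 bp. The extent of a gene runs from its lowest to its highest listed position, and the lists hold a full gene feature for 69.3% of 19768 genes. The reference gene table lists 89.6% of gene IDs and gave names alone. Shared regions were compared with limma 3.58.1 (R 4.3.3), with trend and Benjamini-Hochberg adjustment, and library values with exact permutation tests in scipy 1.17.1 (Python 3.11.15), two-sided. No test compared classes of region. Regions named are the 12 T3-only, 6 control-only and 5 shared regions with the best median pileup rank, the 8 best T3-only regions at gene starts, up to 5 limma calls in each direction, genes of 7 lists with a T3-only or control-only region, and thrb, thibz, klf9, dio3, shh, cdk1 and foxo1. Other regions were named after their values were seen, among them the regions lower on log2 pileup. The members and lists were chosen with earlier results of these data known. Labels give the same replicate numbers to all conditions, and percentile deviations of same-numbered control and T3 libraries correlated by 0.083, 0.0282 and 0.0674, so the block was an alternative. The depth of the libraries is unknown and sets the lowest pileup that can be called. Sequences were not used here. A result of the T3 response list is not reported here.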

Additional observations from a re-analysis of the deposited data

How the results depend on the processing

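The numbers of T3-only, control-only and shared regions were 297, 15 and 3056 with a −log10 q of at least 5, 485, 100 and 7082 with the same number of peaks, and 367, 92 and 4993 with an overlap of 50% of both peaks. With each replicate left out they ranged from 562 to 1695, from 181 to 1207 and from 7444 to 10117. Requiring a peak in fewer libraries raises counts by construction. The share of T3-only regions at a gene start was 3.37% with a −log10 q of at least 5, 5.45% with an overlap of 50% and 4.59% with a window of 500 bp, and 5.60% to 7.30% with each replicate left out. With the 5 kb flanks left out, 54.8% lay outside gene bodies and farther than 1 kb from a gene start. The median width of T3-only regions was 703 bp with a −log10 q of at least 5 and 651 bp with the same number of peaks (428 to 661 bp with each replicate left out), and that of control-only regions was 490 bp with a −log10 q of at least 5 and 486.5 bp with an overlap of 50% (362 to 626 bp). The T3-only percentile was 39.3 with a −log10 q of at least 5 and 63.8 with an overlap of 50% (47.2 to 61.7). The cause of these moves was not tested.

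Regions with a higher percentile with T3 numbered 0 and with a lower one 3. These became 7 and 44 with normal scores, 1 and 47 with log2 pileup, and 0 and 15 with a −log10 q of at least 5. With the replicate block both numbers were 0 on percentiles (2 higher and 48 lower on log2 pileup). With each replicate left out, 0 to 7 were lower on percentiles and 35 to 47 on log2 pileup, an alternative added after seeing the data. Each control library correlated best with the T3 library of its own number, though weakly. The share of peaks in shared regions, higher by 1.89 points with T3, was −13.0 with a −log10 q of at least 5 and −0.321 with the same number of peaks (−0.963, without control replicate 3, to 6.58). In TRα-/- libraries the T3 minus control difference turned to 3.52 for T3-only and 1.35 for shared regions with the same number of peaks. Both classes were there formed anew from the cut lists. With each TRα-/- replicate left out it ranged from −9.26 to 1.06 for control-only and from −7.15 to 0.10 for shared regions, the upper values without T3 replicate 1. For library comparisons, neither the exact test (smallest p 0.1) nor the sign-flip test with the replicate block (smallest p 0.25) could pass 0.05.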

Other observations

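T3-only regions were found on all 10 chromosomes, from 18 on chromosome 10 to 66 on chromosome 2. Chromosome 10 held 4.35% of T3-only and 7.16% of shared regions, and chromosome 2 held 15.9% and 13.6%. Control-only regions numbered 7 on chromosome 10 and 20 on chromosome 1. These shares were not tested.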
